A study of Mus musculus with 40 samples.

Results

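Translation efficiency, the number of ribosome footprints per mRNA of a gene, was compared in the endoplasmic reticulum (ER) fraction between stressed and unstressed mouse embryonic fibroblasts. The cells of every group carried the GADD34-/- genotype, so both treated and control cells lacked the gene Ppp1r15a. Control cells were untreated, and the others received thapsigargin, which blocks the calcium pump of the ER, at 1 uM for 1, 2 or 4 h. Each time and each assay had 2 libraries, numbered replicate 1 and 2, which gave 8 footprint and 8 mRNA libraries, or 16 of the 40 samples of the series. The ER fraction was what dodecyl maltoside released after digitonin had removed the cytosol. Footprints were made by micrococcal nuclease digestion, and mRNA was sequenced after removal of ribosomal RNA. Of 22417 genes in the deposited table, the 679 with a value in all 16 libraries were tested. Cells of all groups were grown with serum and, per the labels' protocols, received 180 uM cycloheximide, which halts elongating ribosomes, just before lysis. No wild-type sample was included. As the labels leave the origin of the replicates unsaid, the p-values speak only of the variation among these libraries.

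Thapsigargin empties the ER of calcium, proteins misfold there, and the kinase PERK phosphorylates the initiation factor eIF2alpha, which slows initiation on most mRNAs. A few mRNAs with short open reading frames upstream of the coding sequence, such as those of the transcription factors ATF4 and CHOP, are translated better in that state. GADD34 brings a phosphatase to eIF2alpha and so ends the block in cells that have it. Ribosomes bound to the ER make secreted and membrane proteins for the most part, but mRNAs of cytosolic proteins are found there as well.

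The footprint libraries held 56843 to 9590446 recovered reads and the mRNA libraries 31620 to 161892, and the untreated footprint libraries (9590446 and 396244 reads) were deeper than all treated ones. The median tested gene had 2861 and 112 reads in the untreated footprint libraries, 18 to 68 in the treated ones and 4 to 28 in the mRNA libraries. The lowest mRNA medians were 6 reads in untreated replicate 2 and 4 in 4 h, replicate 2. Ppp1r15a was listed in 1 of the 8 footprint libraries, untreated, with 5 reads, and in 0 of the 8 mRNA libraries. Of 12 fibroblast markers 8 were listed in all 8 footprint libraries and 5 in all 8 mRNA libraries, and 2, Thy1 and Postn, in 0 mRNA libraries. The 4 epithelial and 4 muscle markers were listed in 0 mRNA libraries and in at most 1 footprint library. Of 4 neural markers Nes was listed in 7 mRNA libraries and Tubb3 in 4, and both in all 8 footprint libraries. The 5 genes chosen to mark the ER fraction and the 5 chosen to mark the cytosol were all listed in all 8 ER libraries of each assay. In bulk extracts, fewer cells and less RNA per cell cannot be told apart.

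Between untreated cells and the pooled 1, 2 and 4 h libraries, 50 genes rose and 33 fell in translation efficiency, which is 12.2% of those tested (7.36% up and 4.86% down). The rises were led by Ddit3, which encodes CHOP, and Atf4. Matrix genes, among them Hspg2, Lamb1, Lama5 and Col5a1, had some of the largest falls. In the same model 121 genes rose and 63 fell in footprints (27.1% called, 17.8% up and 9.28% down), and 24 rose and 5 fell in mRNA (4.27% called, 3.53% up and 0.736% down). Of the 50 genes that rose in efficiency 45 rose in footprints, and in 44 the footprint change was the larger of the 2 parts. Of the 33 that fell 27 fell in footprints, and in 25 the footprint change was the larger. The mRNA of 30 of these 33 had changed in the opposite direction, 3 of them past the threshold (Lamb1, Rps18 and Flnc). The same held for 41 of the 50 that rose, 1 of them past the threshold. Efficiency is the footprint change minus the mRNA change, so choosing genes by it favours opposite signs in both groups.

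Each value was log2 RPKM (reads per kilobase of gene, scaled to the size of the library), centred on the median tested gene of its library, and the change was the treated-by-assay term of a limma model with the replicate number as a block within each assay. The threshold was a Benjamini-Hochberg adjusted p of 0.05. Without centring the median gene fell by 0.61 on the log2 scale and the split was 18 up and 67 down. All directions below are therefore relative to the median gene. Without the block 12 genes rose and 5 fell, and without the untreated mRNA library of replicate 2 the counts were 9 and 3.

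**Figure D1:**
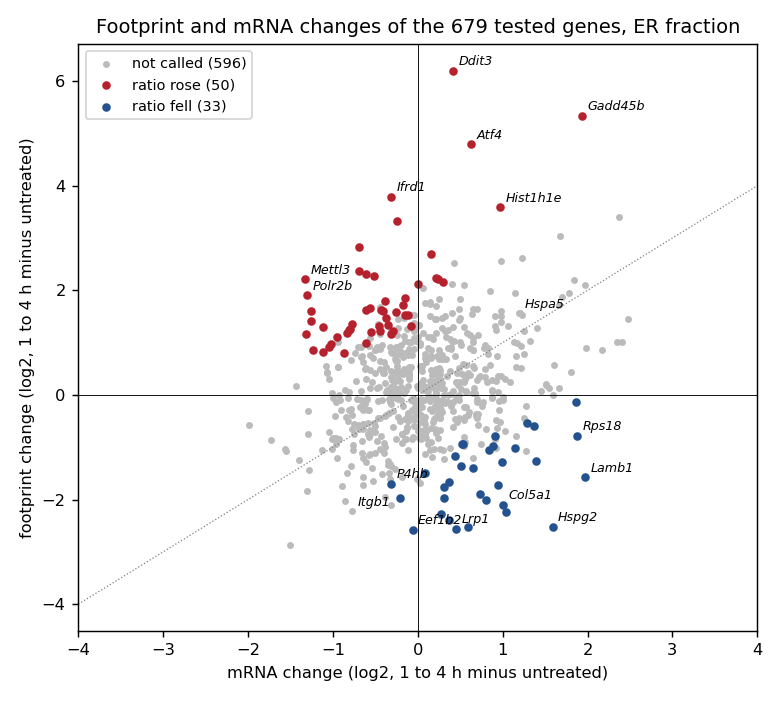
Change in footprints (vertical axis, log2) against change in mRNA (horizontal axis, log2) of the 679 tested genes in the ER fraction, pooled over 1 to 4 h. Genes above the dotted line of equal change gained footprints per mRNA. The 50 genes that rose (red) lie mostly above 0 on the footprint axis, led by Ddit3 at 6.20, and the 33 that fell (blue) mostly below it, with mRNA changes near or above 0.

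Ddit3 changed most. Its footprints stood at 5.01 and 11.3 RPKM in untreated cells (53 and 5 reads) and at 312 to 509 RPKM (median 391) in the 6 treated libraries. Its mRNA stood at 90.7 and 140 RPKM untreated and at 29.9 to 355 RPKM (median 232) treated, so the mRNA groups overlapped and the footprint groups did not. With the median gene of each library set to 1, its footprint-to-mRNA ratio was 0.03 in untreated replicate 1 and 0.0229 in untreated replicate 2. In replicate 1 the ratio was 0.946, 1.45 and 0.989 at 1, 2 and 4 h, and in replicate 2 it was 1.52, 0.668 and 6.40. Before treatment Ddit3 thus held few footprints for its mRNA, and in treated cells about as many as the median gene or more. The change was 5.78 on the log2 scale (SE 0.85, n = 2 replicates, adjusted p = 0.00025), with 5.20 in replicate 1 and 6.35 in replicate 2.

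Atf4 encodes the transcription factor that acts upstream of CHOP. Its footprints rose from 51.5 and 91.4 RPKM to between 778 and 2090 RPKM (median 1410), while its mRNA, with 15 and 2 reads untreated, lay at 38.6 and 13.5 RPKM and then at 14.4 to 106 RPKM. The relative ratio was 0.725 and 1.93 in untreated replicates 1 and 2, and 9.09, 19.2 and 9.32 (replicate 1) and 14.5, 54.6 and 69.0 (replicate 2) at 1, 2 and 4 h. No treated ratio reached down to the untreated ones. The change was 4.16 (SE 0.60, adjusted p = 0.00025), and it was 4.02 and 4.30 in the 2 replicates.

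Ifrd1, a transcriptional coregulator whose mRNA also carries an upstream reading frame, had relative ratios of 0.801 and 0.164 untreated and of 3.54 to 9.59 (median 6.49) treated. The change was 4.10 (SE 0.72, adjusted p = 0.0014). Without the untreated mRNA library of replicate 2 it was 2.82 and did not pass (adjusted p = 0.061). Of 14 mRNAs listed for upstream reading frames 4 could be tested, 3 rose, 0 fell, and the median change was 4.13 against 0.07 over all tested genes. The fourth, Eprs, a tRNA synthetase, had a change of -0.47. Atf5, a further member, was listed in all 8 footprint libraries but in 5 of the 8 mRNA libraries, so its efficiency was not tested. Its footprints lay at 29.1 and 41.6 RPKM untreated and at 280 to 1090 RPKM (median 524) treated.

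**Figure D2:**
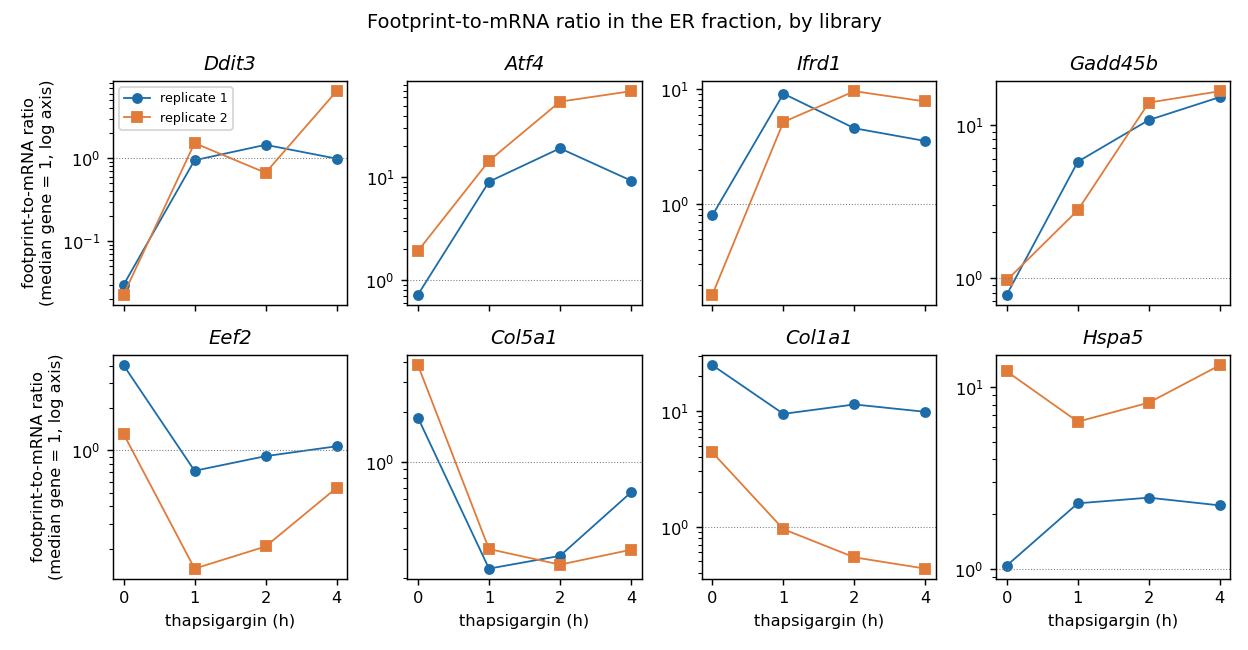
Footprint-to-mRNA ratio of 8 genes in each library pair (vertical log axis, median gene of each library = 1) by hours of thapsigargin, with replicate 1 as circles and replicate 2 as squares. Ddit3, Atf4, Ifrd1 and Gadd45b were higher at every treated time than untreated in both replicates, Eef2, Col5a1 and Col1a1 were lower, and the curves of Hspa5 go in opposite directions at 1 h.

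Gadd45b, a stress-induced regulator of growth arrest and MAP kinase signalling, rose in both parts. Its footprints went from 47.9 and 49.7 RPKM to 556 to 3260 RPKM (median 1880) and its mRNA from 33.6 and 14.7 RPKM (6 reads and 1 read) to 64.0 to 211 RPKM. The relative ratio was 0.776 and 0.963 untreated and 2.76 to 16.5 treated, a change of 3.40 (SE 0.67, adjusted p = 0.0022). Its mRNA change, 1.94, passed as well (adjusted p = 0.021). Of 29 immediate early genes 3 could be tested and Gadd45b was the only one to rise in efficiency in this fit. Fosl2, a subunit of AP-1, rose in footprints by 2.61 with an efficiency change of 1.38 that did not pass, and Cyr61, a matrix signalling protein, fell in footprints by 1.44 with an efficiency change of -0.16.

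Further large rises were in genes with few footprints in untreated cells. Nr1d1, the clock repressor REV-ERBalpha, had 5.13 and 3.09 RPKM of footprints untreated and 17.1 to 58.8 RPKM treated. Its relative ratio was 0.112 and 0.0229 untreated and 0.295 to 2.53 treated, a change of 3.58 (SE 0.58, adjusted p = 0.00077). Diexf, a nucleolar protein of ribosome assembly, changed by 3.52 (SE 0.68, adjusted p = 0.0021), with ratios of 0.0912 and 0.0459 untreated and 0.307 to 1.69 treated. For both genes the groups did not overlap, and each passed in all 16 fits that left out 1 library.

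Mettl3, the catalytic subunit of the m6A RNA methyltransferase, changed by 3.54 (SE 0.70, adjusted p = 0.0022) and Polr2b, the second largest subunit of RNA polymerase II, by 3.22 (SE 0.61, adjusted p = 0.0020). In both the rise was made of a footprint rise (2.21 and 1.91) and a lower mRNA value (-1.33 and -1.30, neither past the threshold). Their ratios in untreated replicate 2 were 0.0229 and 0.0497, against 0.0794 and 0.267 in untreated replicate 1. Without the untreated mRNA library of replicate 2 the changes were 2.45 and 2.18 and did not pass (adjusted p = 0.10 and 0.075). Zeb1, a repressor of epithelial genes, Daxx, a histone chaperone, Acat2, which makes acetoacetyl-CoA, and Fam198b, a Golgi protein, changed by 3.06, 2.93, 2.87 and 2.80, and these too missed the threshold without that library (adjusted p from 0.052 to 0.16).

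Inhba, the activin A subunit and thus a secreted protein, was among the rises that did not depend on 1 library. Its footprints went from 77.2 and 135 RPKM to 143 to 289 RPKM while its mRNA went from 84.7 and 33.4 RPKM to 15.7 to 58.9 RPKM. The ratio was 0.496 and 1.15 untreated and 2.16 to 9.20 treated, a change of 2.68 (SE 0.52, adjusted p = 0.0021). A total of 7 genes passed in every one of the 16 fits that left out a library, namely Ddit3, Atf4, Nr1d1, Diexf, Gadd45b, Inhba and the locus LOC100048117 (2.02). Treated and untreated ratios did not overlap in 34 of the 50 and in 16.2% of all tested genes. The 50 were called on these same ratios, so the higher share is no separate support.

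The tested genes were divided by length into 4 classes of 169 or 170 genes, and 20 of the 50 rises were in the shortest class and 4 in the longest. With the length trend of each library removed, 10 of 45 rises were in the shortest class and 13 in the longest, so the order turned. Genes of abundant proteins were among the rises. Tmsb10, an actin monomer binder, changed by 2.22, Myl6, a myosin light chain, by 2.05, S100a6, a calcium binder, by 2.49, H2afz, a replacement histone, by 1.95, and Hist1h1e, a linker histone, by 2.62. For Hist1h1e the ratio of untreated replicate 2 (5.82) exceeded the lowest treated ratio (0.790) and rested on 1 mRNA read. For H2afz that of untreated replicate 1 (4.82) lay just above the lowest treated one (4.81). Of the cytoskeletal list 34 members could be tested, 2 rose (Tmsb10 and Myl6) and 1 fell (Flnc, an actin crosslinker whose mRNA rose by 1.87 and whose footprint change was -0.13), with a median change of 0.29. Of 15 cytosolic chaperones 1 rose (Hspa1a, 1.98) and 1 fell (Hsp90ab1, -1.58), with a median of -0.46. Of 11 proteasome genes 1 rose (Psmb7, 1.52), and of 15 splicing factors 1 rose (Hnrnpab, 1.76). With the length trend removed, H2afz, Flnc and Psmb7 no longer passed the threshold.

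Collagen chains and matrix glycoproteins held 11 of the 33 falls. Over all tested genes 4.86% fell, and in the longest length class, which held most members of both lists, 18 of 170 fell. Of 22 collagen chains 11 could be tested, 0 rose and 5 fell (Col5a1, Col3a1, Col4a1, Col1a1 and Col11a1), with a median of -1.96. Of 36 matrix glycoproteins and proteoglycans 16 could be tested, 0 rose and 6 fell, with a median of -1.82. The 6 were Hspg2 (perlecan), Lamb1, Lama5 and Lamc1 (laminin chains), Fbn1 (fibrillin) and Fn1 (fibronectin). In footprints alone 8 of the 11 collagen chains and 6 of the 16 glycoproteins fell and 0 rose. Footprints fell in 9.28% of all tested genes and in 26 of 170 in the longest class.

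Col5a1, a chain of fibril-nucleating type V collagen, fell by 3.10 (SE 0.53, adjusted p = 0.0012). Its footprints stood at 220 and 172 RPKM untreated and at 25.9 to 56.5 RPKM (median 30.3) treated, and its mRNA at 65.1 and 12.8 RPKM untreated and 52.1 to 90.4 RPKM treated. The relative ratio was 1.84 and 3.81 untreated and 0.228, 0.272 and 0.655 (replicate 1) and 0.299, 0.241 and 0.296 (replicate 2) at 1, 2 and 4 h. All 6 treated ratios were below both untreated ones, and the gene passed in all 16 fits that left out a library.

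Col1a1, the main fibrillar collagen chain of fibroblasts, had the most untreated footprint reads of the tested genes (304759 in replicate 1). Its footprints stood at 3340 and 5200 RPKM untreated and at 552 to 1380 RPKM treated. Its ratio was 24.9 and 4.38 untreated, and 9.45, 11.4 and 9.84 (replicate 1) and 0.950, 0.542 and 0.433 (replicate 2) treated. Both replicates went down, but the treated ratios of replicate 1 were above the untreated ratio of replicate 2. The change was -2.07 (SE 0.52, adjusted p = 0.011). Col1a2, its partner in type I collagen, had a change of -0.38 that did not pass (adjusted p = 0.74), with 0.49 in replicate 1 and -1.26 in replicate 2. Col3a1, the chain of type III collagen, fell by 2.63 (SE 0.64, adjusted p = 0.0093).

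Hspg2 had the largest fall, 4.11 (SE 0.76, adjusted p = 0.0017). Its footprints stood at 144 and 185 RPKM untreated and at 15.2 to 28.7 RPKM treated, and the relative ratio at 8.84 and 24.4 untreated and 0.382 to 3.82 treated. Its mRNA had 43 reads in untreated replicate 1 and 4 in untreated replicate 2. For Lamb1, which fell by 3.53 (SE 0.78, adjusted p = 0.0046), the mRNA value of untreated replicate 2 was 1 read, and the ratio was 2.21 and 34.5 untreated and 0.607 to 1.31 treated. Fn1 fell by 2.67 (SE 0.71, adjusted p = 0.016), from ratios of 2.99 and 5.87 to 0.337 to 1.26.

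The footprint part of these falls was alike in both replicates and the mRNA part was not. The median footprint change of the collagen chains was -1.50 in replicate 1 and -1.70 in replicate 2, and that of the glycoproteins -0.90 and -1.07. Their median mRNA change was -0.64 and 1.12 (collagen chains) and -0.22 and 1.32 (glycoproteins) in replicates 1 and 2. The median efficiency change was accordingly -0.69 and -2.66 for collagen chains and -0.74 and -2.87 for glycoproteins. Without the untreated mRNA library of replicate 2 the medians were -0.79 and -0.86, with 1 collagen chain (Col5a1) and 0 glycoproteins past the threshold of limma's adjusted p. For Hspg2 and Lamb1 the changes without that library were -2.45 and -1.61 (adjusted p = 0.061 and 0.13).

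**Figure D3:**
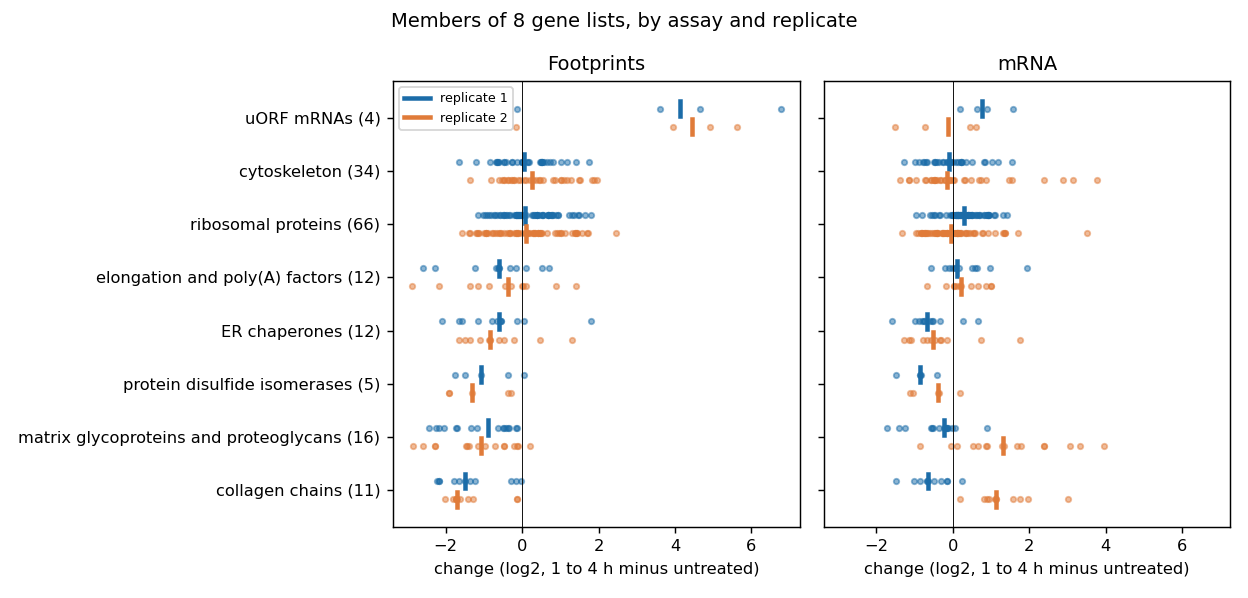
Change in footprints (left) and mRNA (right) of the tested members of 8 gene lists, by replicate (log2, horizontal axis, members as points, medians as bars, number tested in brackets). Collagen chains have median footprint changes of -1.50 and -1.70 in replicates 1 and 2 but median mRNA changes of -0.64 and 1.12.

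Gene length moved with the same mRNA library. All 11 collagen chains and 15 of the 16 glycoproteins were in the longest of the 4 length classes, by the length that the RPKM steps imply, as were 18 of the 33 falls. In that class the median mRNA change was -0.07 in replicate 1 and 0.64 in replicate 2, against 0.16 and -0.17 in the shortest class. The median footprint change was -0.16 and -0.05 in the longest class and 0.41 and 0.24 in the shortest. In the longest class 26 genes fell and 22 rose in footprints, and in the shortest 7 fell and 38 rose. With the trend on length removed from every library, a setting chosen after seeing the data, 4 collagen chains and 5 glycoproteins fell, with medians of -1.29 and -1.34.

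**Figure D4:**
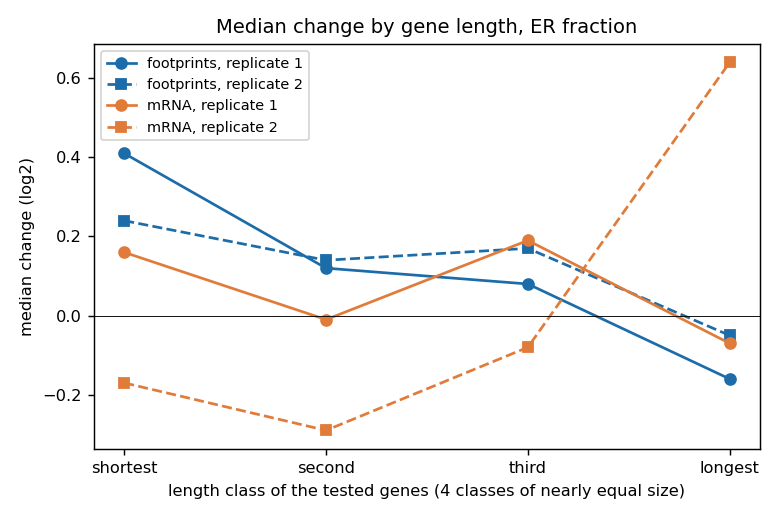
Median change (log2, vertical axis) by length class of the tested genes (horizontal axis, 4 classes of nearly equal size) for footprints and mRNA in each replicate of the ER fraction. The mRNA of replicate 2 goes from -0.17 in the shortest class to 0.64 in the longest, while the other 3 lines end between -0.16 and -0.05.

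Among the growth factor and lipoprotein receptors 1 of 4 tested genes fell, as did 0 of 4 integrins and adhesion receptors by limma's adjusted p, with 1 of these down at an unadjusted p under 0.05. Lrp1, an endocytic receptor, fell by 3.01 (SE 0.61, adjusted p = 0.0029), from ratios of 4.67 and 9.70 to 0.485 to 1.47. Ap2a2, a clathrin adaptor subunit in the cytosol, fell by 2.65 (SE 0.82, adjusted p = 0.036) and passed in 6 of the 16 fits that left out a library. Itgb1, the beta1 integrin, had a fall in footprints of 2.22 and an efficiency change of -1.45 that did not pass (adjusted p = 0.075). It was -0.58 in replicate 1 and -2.31 in replicate 2.

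The deposited table marks each gene TRUE or FALSE without saying what the mark means, and among the tested members 12 of 12 ER chaperones, 10 of 11 collagen chains and 0 of 66 ribosomal proteins are TRUE. Of the 679 tested genes 128 were TRUE (18.9%), of the 33 falls 15 (45.5%) and of the 50 rises 5 (10.0%). The 5 were Inhba, Fam198b, Ptx3, Htra2 and Pcdh18. The median efficiency change was -0.52 in TRUE and 0.21 in FALSE genes. In footprints 41 TRUE genes fell and 7 rose, while 22 FALSE genes fell and 114 rose. The median mRNA change of TRUE genes was -0.54 in replicate 1 and -0.12 in replicate 2.

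Among ER chaperones no efficiency change passed the threshold, and the median footprint and mRNA changes were -0.72 and -0.62. Of 30 chaperones 12 could be tested, and 0 rose and 0 fell in efficiency by limma, with a median of -0.08 and 1 up and 1 down at an unadjusted p under 0.05. The fit without the replicate block also gave 0 and 0. Hspa5, the main ER chaperone BiP, rose in footprints by 1.56 (adjusted p = 0.0018) and in mRNA by 1.20 (adjusted p = 0.037). Hspa5 footprints were at 770 and 1080 RPKM untreated and at 1480 to 2340 RPKM treated. Its relative ratio was 1.04 and 12.2 untreated and 2.23 to 13.2 treated, and the replicates went in opposite directions, 1.16 and -0.46. The efficiency change, 0.35, did not pass (adjusted p = 0.68).

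Some other ER folding genes fell in footprints. Of the 12 chaperones 4 fell in footprints (Rcn1, Fkbp9, Fkbp10 and Serpinh1, the collagen chaperone) and 0 in mRNA by limma's adjusted p. Their median change was -0.72 in footprints and -0.62 in mRNA. Footprints fell in 9.28% of all tested genes and in 41 of the 128 TRUE genes, which include all 12 chaperones. The chaperone count is thus near that of TRUE genes as a whole. Hsp90b1, the ER form of HSP90, had changes of -0.53 in footprints, -0.52 in mRNA and -0.01 in efficiency. Of 17 protein disulfide isomerases 5 could be tested. P4hb, also the beta subunit of prolyl 4-hydroxylase, fell in efficiency by 1.39 (SE 0.43, adjusted p = 0.034), and Pdia4 had a change of 0.01. Plod3, a lysyl hydroxylase of collagen, fell by 1.77 (SE 0.53, adjusted p = 0.031). The ratios of P4hb were 1.07 and 5.31 untreated and 0.636 to 1.32 treated, so the groups overlapped. Those of Plod3 were 1.64 and 2.67 untreated and 0.315 to 1.15 treated. With no replicate block neither gene passed the threshold.

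Targets of ATF4 and CHOP could be tested in 6 of 29 cases, and 0 rose and 0 fell in efficiency by limma, with a median of 0.45 and 3 up at an unadjusted p under 0.05. Herpud1, a part of the ER degradation machinery, rose in footprints by 2.11 and had an efficiency change of 1.57 (SE 0.60, adjusted p = 0.086). Its ratios were 1.11 and 0.734 untreated and 1.15 to 4.75 treated. Slc3a2, an amino acid transporter subunit, rose in footprints by 1.51 with an efficiency change of 1.19. Xbp1, the factor spliced by IRE1, had a change of 0.99 that did not pass (adjusted p = 0.32). Of 11 tRNA synthetases 1, Vars, fell by 2.16 (SE 0.53, adjusted p = 0.0097), and 0 rose.

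Genes of the translation machinery changed in both directions. Many of these mRNAs begin with a run of pyrimidines directly at the cap, a feature through which the mTORC1 pathway sets their translation. Of 17 genes in the list of elongation and poly(A) factors, which also holds Tpt1, Nap1l1, Vim and Hnrnpa1, 12 could be tested, 0 rose and 5 fell, with a median of -0.68. The 5 falls were 0 with no replicate block and 1 without untreated mRNA replicate 2 or without either untreated footprint library, and leaving out any other single library gave 3 to 5. Of 83 ribosomal proteins 66 could be tested, 5 rose and 4 fell, with a median of -0.04. Over all tested genes 7.36% rose and 4.86% fell, so the ribosomal protein counts lie near the overall shares. With the length trend of each library removed, 3 ribosomal proteins rose and 7 fell, with a median of -0.49. The bases around the annotated start of 4 genes that fell and 3 that rose are shown. Capitals mark the longest run of a C followed by 4 or more C or T, anywhere among these bases. Both groups hold genes with and without a run so defined. Of the genes shown only Rps18 and Gnb2l1, which fell, have it over the start itself.

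Rps18 (fell): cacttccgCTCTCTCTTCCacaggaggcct
Gnb2l1, Rack1 in RefSeq (fell): gccgCTCTTTCTTTTTCTCCacagggtcgt
Eef1b2 (fell): ctgcagttccgccggaagtagccgaggcct
Eef2 (fell): aaggccgggcgttgacgtcagcggtCTCTT
Rpl11 (rose): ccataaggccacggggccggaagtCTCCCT
Rps15 (rose): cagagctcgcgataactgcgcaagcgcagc
Rpl41 (rose): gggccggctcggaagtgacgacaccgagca

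These windows, 10 bases before to 20 after the start, are from RefSeq on build GRCm38.p6, on the transcribed strand, which alone was searched. They lie at chr17:33955646-33955675 (minus strand, Rps18), chr11:48800350-48800379 (plus, Rack1), chr1:63176821-63176850 (plus, Eef1b2), chr10:81176621-81176650 (plus, Eef2), chr4:136053374-136053403 (minus, Rpl11), chr10:80292421-80292450 (plus, Rps15) and chr10:128549149-128549178 (minus, Rpl41). Rps18 and Rack1 have such a run over the annotated start, as do 2.51% of the 32851 starts in the reference table. Somewhere in the window 35.8% of those starts have one. A run at the start is more common in the classes of these 2 genes. It was found in 4.5% of the matched tested genes, 20.4% of the ribosomal proteins and 22.2% of the elongation and poly(A) factors. Among the ribosomal proteins that were not called it was 20.9%. Somewhere in the window a run was found in 61.2% of the matched ribosomal proteins and in 55.6% of the matched elongation and poly(A) factors. Over the matched tested genes it was 38.4%. Eef1b2 and Tpt1, which fell, had none in the window of their annotated start. A single annotated start per gene was searched, and whether it is the cap site in these cells was not tested. A missing run here therefore does not show that the mRNA lacks one at its cap. The runs of Eef2 and Rpl11 reach the last base of the window and can go on beyond it. A start was matched for 75.8% of the tested genes, under the 80% needed, so a comparison of the feature between genes that rose and fell is void.

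Eef2, the factor that moves the ribosome along the mRNA, fell by 2.28 (SE 0.47, adjusted p = 0.0031) and passed in all 16 fits that left out a library. The footprints of Eef2 were at 397 and 480 RPKM untreated and at 83.1 to 221 RPKM treated, and its mRNA at 53.4 and 105 RPKM untreated and 80.2 to 513 RPKM treated. The ratio was 4.04 and 1.31 untreated, and 0.716, 0.910 and 1.07 (replicate 1) and 0.144, 0.207 and 0.541 (replicate 2) at 1, 2 and 4 h. All 6 treated ratios lay below both untreated ones, and the falls of the 2 replicates were 2.19 and 2.37 in size, although the call was lost without the block (adjusted p = 0.26).

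Pabpc1, the cytoplasmic poly(A)-binding protein, fell by 2.76 (SE 0.68, adjusted p = 0.0097), Eef1b2, an exchange factor of elongation, by 2.52 (SE 0.75, adjusted p = 0.030), and Gnb2l1, the ribosomal scaffold RACK1, by 1.82 (SE 0.60, adjusted p = 0.047). Eef1a1, which delivers aminoacyl-tRNA, had a change of -0.52 that did not pass. Among ribosomal proteins Rps18 (-2.67), Rpl8 (-1.89) and Rps7 (-1.71) fell. For Rps18 the mRNA value of untreated replicate 2 was 1 read, its mRNA rose by 1.88 and its footprint change, -0.78, did not pass. Rps14 (2.13), Rps15 (1.79), Rpl10 (1.70), Rpl41 (1.65) and Rpl11 (1.49) rose. Without the untreated mRNA library of replicate 2 none of these 8 genes passed the threshold. Ribosomal protein genes have processed copies, so their reads could be shared with other loci.

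In 8 other groups no gene passed the threshold. Over all tested genes 12.2% passed, so 0 calls among 5 to 12 tested genes do not show that a group was unchanged. Of 12 initiation factors, 7 glycolytic enzymes, 9 translocation and glycosylation genes, 7 genes of vesicle coats, 5 lysosomal genes, 6 respiratory chain genes, 7 mitochondrial import and carrier genes and 8 cell cycle genes 0 rose and 0 fell, with medians of 0.12, 0.47, -0.51, -0.72, -0.09, 0.27, -0.17 and 0.24. At an unadjusted p under 0.05 limma gave 2, 1, 0, 1, 0, 1, 0 and 0 positive changes and 0, 0, 2, 0, 0, 2, 1 and 0 negative ones in them. Gapdh, a glycolytic enzyme, came nearest, with a change of 1.62 (SE 0.54, limma adjusted p = 0.051). Its ratios were 2.81 and 2.01 untreated and 2.96 to 25.6 treated, without overlap, and without the replicate block its adjusted p was 0.50. Of the housekeeping genes Actb had a change of 0.95, Vim, an intermediate filament protein, one of -0.21, and the ribosomal protein genes Rpl5 and Rplp0 -0.84 and -0.58, none past the threshold. Sparc, a secreted matrix protein whose mRNA is cut by IRE1 in other cells, had a change of 0.55, with footprints at -0.74 and mRNA at -1.29.

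Calls were made from 1 h on. At 1 h 29 genes rose (4.27%) and 14 fell (2.06%), 6.33% in all. At 2 h 40 rose (5.89%) and 23 fell (3.39%), 9.28% in all, and at 4 h 21 rose (3.09%) and 12 fell (1.77%), 4.86% in all, each against the same untreated libraries. Ddit3 changed by 5.51, 5.23 and 6.58 and Atf4 by 3.28, 4.78 and 4.42 at 1, 2 and 4 h. Gadd45b changed by 2.20, 3.82 and 4.19. Col5a1 changed by -3.34, -3.37 and -2.59, Pabpc1 by -3.56, -3.35 and -1.36, and Eef2 by -2.84, -2.40 and -1.60.

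Tested directly, 4 h against 1 h gave 0 genes past the threshold of limma's adjusted p (0%), with 57 at an unadjusted p under 0.05. The smallest p-values on the positive side were those of Gm10166 (2.23), the ribosomal protein gene Rpl17 (2.19) and Gadd45b (1.99), each with an adjusted p of 0.42 or more. On the negative side they were those of Nid1 (-2.53), a basement membrane linker, Dstn (-3.56), an actin depolymerising factor, and Cdsn (-1.98). Without the block 0 genes passed at 1, 2 or 4 h taken alone. With single libraries left out, 0 to 54 genes rose at 1 h, 6 to 51 at 2 h and 4 to 50 at 4 h.

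The cytosol of the same cells gave separate libraries of both assays, in which 1282 genes could be tested, and 25 rose (1.95%) and 2 fell (0.156%) in efficiency, 2.11% in all. Ddit3 and Atf4 rose there by 5.21 and 3.86, close to their ER values of 5.78 and 4.16. Of the 50 genes that rose in the ER 45 had a cytosol value, 43 of these were positive and 12 passed, with a median of 1.36. Of the 33 that fell 14 had a cytosol value, 13 were negative and 0 passed, with a median of -0.76. Over the 528 genes with both values the changes had a Spearman correlation of 0.48, given as a description, since genes are not independent. Without the block 1 gene rose and 0 fell in the cytosol, and without the untreated cytosol mRNA library of replicate 2 1 rose and 1 fell.

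Collagen chains had positive median changes in the cytosol. Of 4 tested there 0 rose and 0 fell by limma's adjusted p, with a median of 1.48 against -1.96 for the 11 tested in the ER, and the 79 TRUE genes tested there had a median of 0.83. Col1a1 had a cytosol change of 0.47 (SE 0.98) and Fn1 one of -0.20 (SE 0.92). The difference between ER and cytosol changes was -2.46 for Col1a1, -2.87 for Col1a2 and -2.39 for Fn1, and none passed (adjusted p = 0.55, 0.45 and 0.60). Only 1 of the 528 genes passed that direct test (0.189%), Polr2b, with a difference of 4.78 (SE 0.99, adjusted p = 0.020) from an ER change of 3.22 and a cytosol change of -1.49. This call was lost without the untreated ER mRNA library of replicate 2, without either untreated ER footprint library and without the untreated cytosol mRNA library of replicate 2. On the negative side Fkbp9, a prolyl isomerase of the ER, came nearest (-3.96, SE 1.00, adjusted p = 0.11), and 48 genes had an unadjusted p under 0.05.

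**Figure D5:**
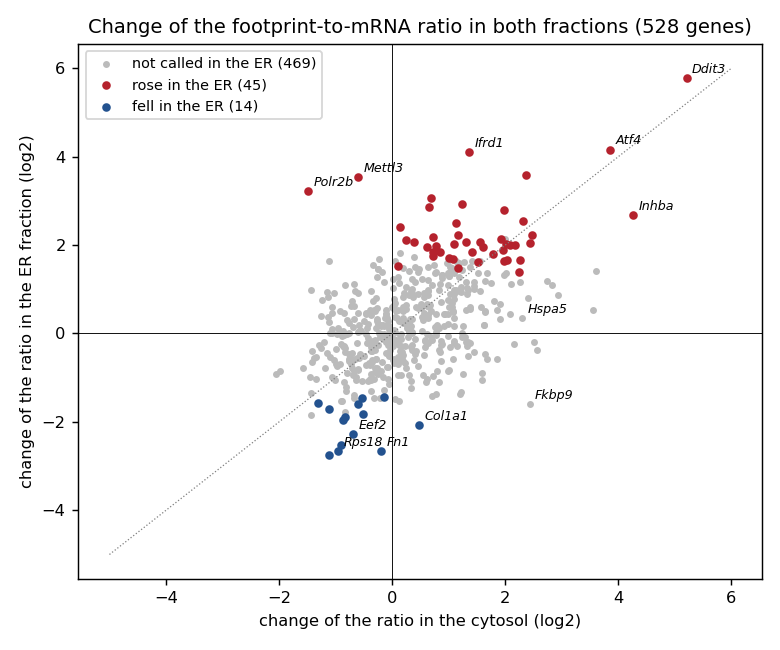
Change of the footprint-to-mRNA ratio in the ER fraction (vertical axis, log2) against that in the cytosol (horizontal axis, log2) for the 528 genes with both values. Ddit3 and Atf4 lie near the dotted line of equal change, and Polr2b, at 3.22 in the ER and -1.49 in the cytosol, lies farthest above it.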

How the data were processed

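The authors deposited 1 table of 22417 mouse genes with 1 column per sample. Its unit is not given in the sources used here and was read from the values: the deposited values behave as RPKM, whole reads divided by a gene length and a library total, and whole reads were recovered for 12961 genes within 2e-06 plus a 1e-08 share of the number. The submitters' processing notes name Bowtie, with no version, and the build hg19, a human build, so no coordinates of the table are used. A gene without a value is blank. Footprint and mRNA replicate 1 libraries list genes from about 4 reads on, mRNA replicate 2 libraries from 1.

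From these values log2 RPKM (pseudocount 0) was computed for the 679 genes listed in all 16 libraries and centred on the median gene of each library, which also removes any factor common to a library. A gene lost from 1 treated library is thus not tested. limma 3.58.1 (with R 4.3.3, a trended and non-robust variance prior, and 10 residual degrees of freedom) fitted treatment, assay, their interaction and the replicate number within assay, with 2-sided Benjamini-Hochberg adjusted p-values over all genes tested. SE is that of the limma coefficient. Medians of lists were taken over tested members. The fits were run on simulated reads with known changes and the same spread for every gene (dispersion 0.05). The simulated reads held no replicate effect, no length trend and no deviating library. They therefore cannot show how far the calls rest on the block or on single libraries.

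Whether the numbers pair the samples was checked on replicate differences between times: within footprints they correlated at 0.25 to 0.46 (6 pairs), within mRNA at 0.66 to 0.77 (6 pairs) and between assays at 0.07 to 0.26 (16 pairs). The block on the replicate number within each assay was part of the plan and was not chosen from these correlations.

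Named genes were the 12 largest rises and falls with the same sign in both replicates, a fixed list of stress, matrix and housekeeping genes, and the largest of each gene list. The genes, lists and tests were chosen with earlier results of these data known. Alternatives were other pseudocounts, centrings, filters, blanks, weights, no block and each replicate, library or time left out. The 0.5 h libraries were not used, as 1 of them has no values. Protein features were not analysed here. Some genes that met the rule for named genes are not reported here.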

Additional observations from a re-analysis of the deposited data

Results flagged for a closer look

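In the 6 treated library pairs, 1 ratio stood apart from the other 5 for 3 of the 40 genes examined, by Dixon's test on the log2 ratios at the 95% level (critical value 0.625), which chance passes in about 1 in 20 groups. For Ddit3 the relative ratio of 4 h, replicate 2 was 6.40, with the next at 1.52, a gap of 0.64 of the range on the log2 scale. For Lamb1 it was 1.31 at 1 h, replicate 2, with the next at 0.763, and for Col5a1 0.655 at 4 h, replicate 1, with the next at 0.299. The 3 libraries differ. The test of ER against cytosol changes set Polr2b apart, with a difference of 4.78.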

How the results depend on the processing

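Rises and falls in efficiency (50 and 33) were 18 and 67 without centring, 12 and 5 with no replicate block, 29 and 17 at a mean of at least 50 RPKM, 7 and 6 without replicate 1, 21 and 3 without replicate 2, 24 and 15 without the 2 h libraries, 8 and 4 with blanks read as 0, and 16 and 11 without the 2 shallowest mRNA libraries, which was chosen after seeing the data. Subtracting the median after the fit gave 21 falls. Leaving out single libraries gave 9 to 68 rises and 3 to 51 falls. The lowest counts, 9 and 3, came without untreated mRNA replicate 2. They were 13 and 6 without untreated footprints replicate 2, 28 and 10 without untreated footprints replicate 1, and 51 falls without untreated mRNA replicate 1. With the length trend removed they were 45 and 33, and then 10 and 3 with no replicate block and 10 and 6 without untreated mRNA replicate 2.

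Footprints (121 and 63) gave 43 and 18 with no replicate block and 14 to 162 and 3 to 110 with libraries left out. mRNA (24 and 5) gave 1 and 0, and 0 to 40 and 0 to 19. At 1, 2 and 4 h all 6 counts were 0 with no replicate block. With libraries left out they were 0 to 54 and 0 to 46 at 1 h, 6 to 51 and 0 to 41 at 2 h, and 4 to 50 and 0 to 29 at 4 h. In the cytosol (25 and 2) they were 1 and 0, and 1 to 46 and 0 to 13 with libraries left out. The 4 h against 1 h test (0 and 0) gave 11 and 5 with up to 2 blanks per assay and 0 to 13 and 0 to 5 with libraries left out, and could not be fitted without replicate 1 or 2. ER against cytosol (1 and 0) gave 0 rises with no replicate block, at 50 RPKM, with array weights, without replicate 2 and with separate times, 2 and 4 with up to 2 blanks, 4 falls without centring, 5 and 26 without replicate 1, and 0 to 3 and 0 to 28 with libraries left out. The cause of these moves was not tested.

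No named gene changed sign while called. Of 44 named calls 14 were kept with no replicate block, 7 without untreated mRNA replicate 2, 44 with a pseudocount of 1 and 38 with the length trend removed. Depth limits single genes, with a median of 4 to 28 mRNA reads and 18 to 68 treated footprint reads per tested gene.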

Other observations

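Genes outside the efficiency test had footprint values in the ER fraction that are given here as values. Eif4a2, an initiation factor helicase, stood at 27.3 and 37.6 RPKM untreated and at 227 to 496 RPKM (median 414) treated, and was listed in 6 of the 8 mRNA libraries. Hmox1, heme oxygenase, stood at 21 and 26.1 RPKM untreated and at 65.7 to 127 RPKM treated, with an mRNA value in 1 library. Ccnd1, cyclin D1, stood at 62.3 and 84.9 RPKM untreated and at 20.2 to 46.8 RPKM treated. Ssr1, a subunit of the translocon-associated complex, stood at 314 and 316 RPKM untreated and at 36.7 to 160 RPKM treated. For these 4 genes the treated and untreated footprint values did not overlap. Ppp1r15b, the constitutive partner of the eIF2alpha phosphatase, stood at 12 and 12.2 RPKM untreated and at 8.39 to 17.3 RPKM treated.

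Among genes whose footprints and mRNA both rose past the threshold, the 4 with the smallest efficiency changes (0.06 to 0.18) were chosen after their values were seen. They are Tsc22d1 (1.71 and 1.66), Amotl2 (1.95 and 1.78) and Ankrd1 (1.88 and 1.70), the last 2 being targets of YAP signalling, and Tnk2 (2.10 and 1.97).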
